A study of Rattus norvegicus with 6 samples.

Results

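The complement and coagulation factors examined here are 39 genes whose proteins are mostly made by hepatocytes and released into blood plasma. Members are the non-control probes whose RefSeq accession belongs to 1 of these genes, and the probe with the highest mean signal stood for its gene. Of the 39 genes 34 had such a probe, 58 probes in all, among 15284 named genes on the array. Signals of C5, C8g, F5, F11 and F13b were not analysed here. All 58 probes were well above background on all 6 arrays, so all 34 genes with a probe passed the filter on dim signal, as did 11434 genes in total.

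Liver RNA came from 6 male Sprague-Dawley rats, 1 array per animal, bought at 5 weeks of age. Animals of the control group (n = 3) were given corn oil, the vehicle. The treated group (n = 3) received daily doses of phenolphthalein, a laxative drug of former years that also serves as an acid-base indicator, of 1000 mg/kg/day. The treatment protocol speaks of 9 weeks and the design text of 28 days, and the labels give no age at sampling and no vehicle for the treated animals. Corn oil arrays lay on slide 1 and phenolphthalein arrays on slide 2, scanned on different days, so the effects of slide, scan day and dosing cannot be told apart below. The 75th percentile of spot signal was 551 to 636 per array, no spot was saturated, and the hepatocyte markers Alb, Ttr, Apoa1, Tf, Tat, Cps1, Ahsg and Hpx were well above background on every array. Signals are given as log2 relative to the 75th percentile of the same array, so that 0 is that percentile.

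Complement is a cascade of plasma proteases that marks microbes and damaged cells. It starts when pattern-binding proteins activate their partner proteases, passes through the convertases that cleave C3, and ends in a pore of the terminal components. Coagulation is a second protease cascade, in which thrombin turns fibrinogen into fibrin. Plasma inhibitors and cofactors hold both in check, and plasmin dissolves the clot. Several of these genes belong to the acute phase response, in which interleukin-6 raises their transcription in the liver through STAT3 and C/EBP proteins.

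The comparison asked which of these transcripts stood at other levels in treated than in vehicle livers. Mean signals of the 34 genes differed little between the groups. The log2 fold changes ran from -0.50 for Klkb1 to 0.22 for Fgg, with a median of -0.01 against 0.01 over all 11434 genes. For 32 of 34 members the mean differed by under 0.25 log2 units, as it did for 72.3% of all genes. The members were brighter than most genes, and all genes were not matched to them for signal, here or below. For scale, Cyp2b1, a P450 enzyme induced by drugs, had a log2 fold change of 3.61 ± 0.20 (SE, limma adjusted p = 0.0108) on the same arrays.

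With limma and Benjamini-Hochberg adjustment over all genes, 0 of 34 members passed at 0.05, where 0.0612% of all genes did, and the smallest adjusted p of a member was 0.256. At an unadjusted p under 0.05 there were 2 members, both with a lower mean, against 15.3% of all genes. The 95% interval of the fold change lay wholly within 2-fold in either direction for 33 of 34 members, Klkb1 being the exception, and for 87.1% of all genes. It lay within 1.5-fold for 30 members and for 64.4% of all genes. Outside 1.5-fold were Klkb1, F7, C6 and C1s. These intervals cover the spread between arrays under 1 scaling. Centring each array on its median instead (a median shift) moved the median over all genes from 0.01 to 0.09 log2 units.

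**Figure D1:**
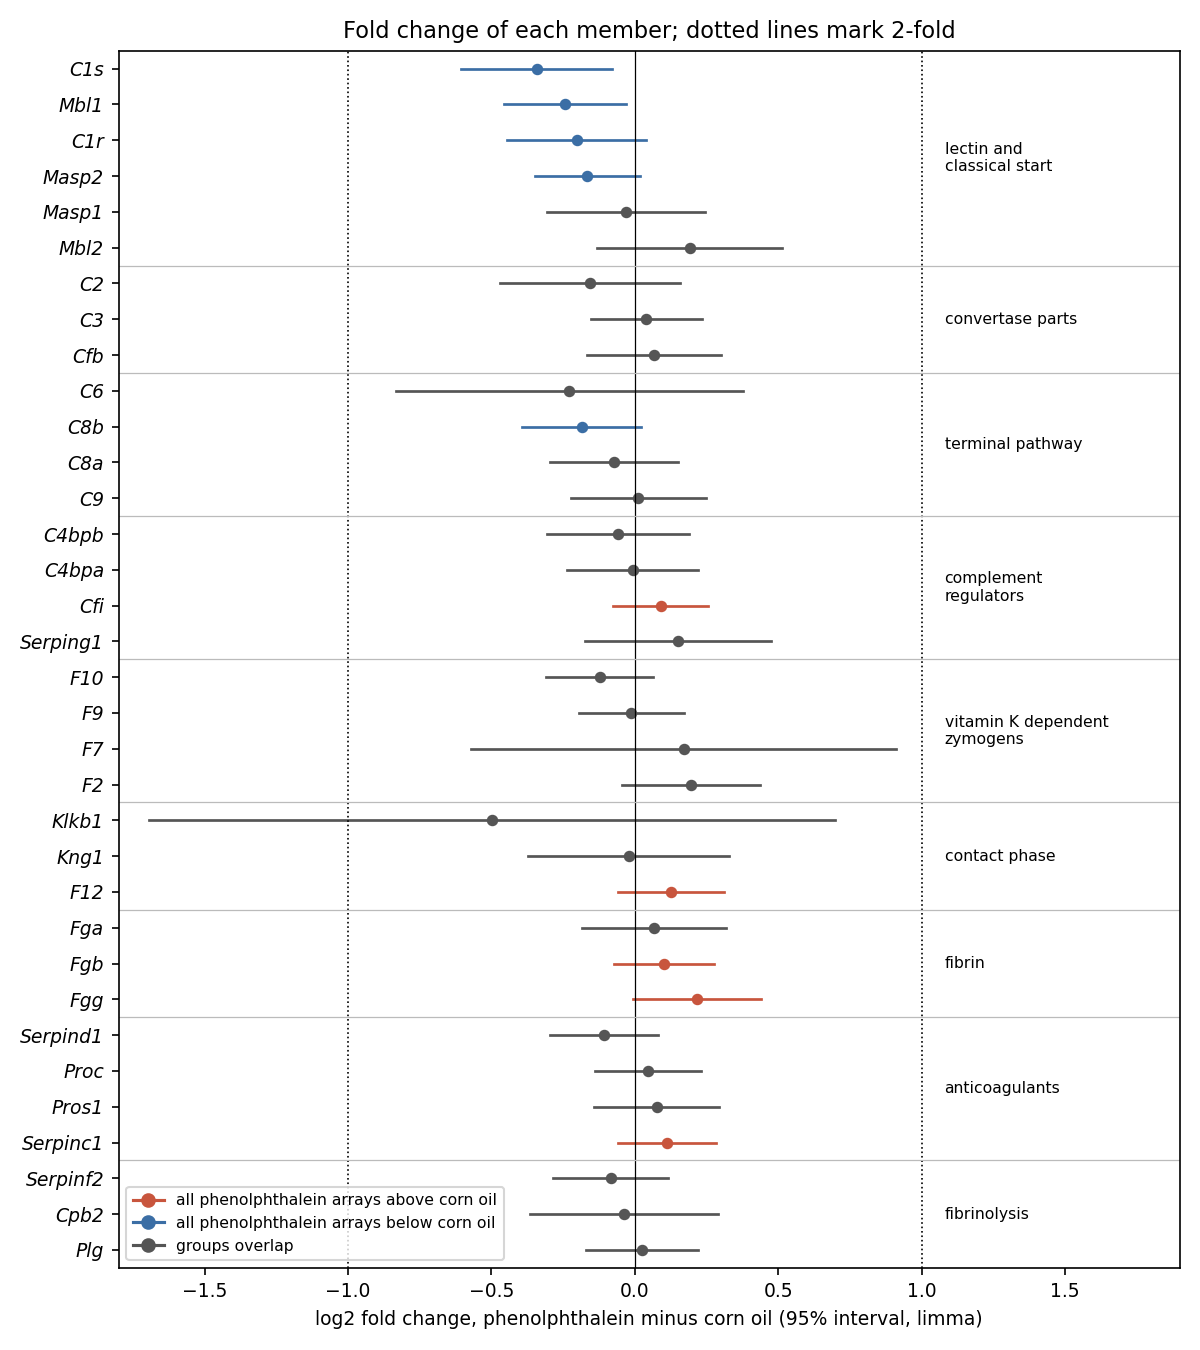
Log2 fold change of each of the 34 members, phenolphthalein minus corn oil, with its 95% interval from limma (x axis) for each gene (y axis, ordered by role). Dotted lines mark 2-fold, the interval of Klkb1 alone crosses 1 of them, and colours show the 5 genes with all phenolphthalein arrays above and the 5 with all below the corn oil arrays, of which C1s alone kept that place in all 4 scalings.

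All phenolphthalein arrays lay above all corn oil arrays for 5 members (Fgb, Fgg, Serpinc1, F12 and Cfi), and this held for 12.2% of all genes. They lay below for 5 others (C1s, C1r, Mbl1, Masp2 and C8b), as for 11% of all genes. Each count is 14.7% of the members, so both shares were near those of all genes. The split between directions depended on scaling. With quantile normalization the counts were 0 above and 8 below, against 10.8% and 11.2% of all genes. With a median shift they were 8 above and 1 below, against 22.2% and 6.31% of all genes. With normexp background correction they were 2 and 8, against 14.1% and 10.2% of all genes. C1s was the 1 member whose groups stayed apart in all 4 of these scalings.

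Promoter sequences of 5 members are shown for the 3 fibrinogen genes, which are neighbours, and for C1r and Mbl1, members of the complement start with lower means. They are RefSeq sequences of build GRCr8, 5′ to 3′ on the strand of the gene, from 250 bases before to 50 bases after the annotated start. Capitals mark CTGGGA, the core of the interleukin-6 response element known from rat fibrinogen genes, and GTTAAT, part of the site known for the liver factor HNF1, on either strand.
Fga, chr2:170671919-170672218, plus strand: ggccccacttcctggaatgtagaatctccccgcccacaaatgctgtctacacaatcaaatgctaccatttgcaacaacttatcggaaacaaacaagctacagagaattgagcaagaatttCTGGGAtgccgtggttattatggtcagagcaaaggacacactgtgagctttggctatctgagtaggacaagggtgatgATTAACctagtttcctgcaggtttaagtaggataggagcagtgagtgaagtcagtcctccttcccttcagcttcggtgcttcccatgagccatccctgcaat
Fgb, chr2:170700826-170701125, minus strand: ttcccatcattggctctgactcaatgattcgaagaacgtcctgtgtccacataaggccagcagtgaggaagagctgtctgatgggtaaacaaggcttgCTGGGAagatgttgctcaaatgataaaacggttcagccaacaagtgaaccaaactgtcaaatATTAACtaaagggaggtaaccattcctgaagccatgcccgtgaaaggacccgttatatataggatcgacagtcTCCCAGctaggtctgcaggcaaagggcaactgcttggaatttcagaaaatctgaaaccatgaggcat
Fgg, chr2:170652833-170653132, plus strand: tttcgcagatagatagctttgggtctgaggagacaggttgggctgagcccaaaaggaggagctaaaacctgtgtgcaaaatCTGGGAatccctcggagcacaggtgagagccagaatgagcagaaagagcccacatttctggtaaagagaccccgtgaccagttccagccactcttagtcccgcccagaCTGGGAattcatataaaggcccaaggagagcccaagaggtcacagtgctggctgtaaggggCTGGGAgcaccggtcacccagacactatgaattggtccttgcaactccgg
C1r, chr4:159098763-159099062, plus strand: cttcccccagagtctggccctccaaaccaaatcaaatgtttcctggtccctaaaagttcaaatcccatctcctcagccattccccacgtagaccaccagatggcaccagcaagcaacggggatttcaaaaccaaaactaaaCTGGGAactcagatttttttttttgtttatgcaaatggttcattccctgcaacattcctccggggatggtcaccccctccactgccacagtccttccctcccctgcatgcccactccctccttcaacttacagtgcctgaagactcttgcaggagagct
Mbl1, chr16:17062982-17063281, plus strand: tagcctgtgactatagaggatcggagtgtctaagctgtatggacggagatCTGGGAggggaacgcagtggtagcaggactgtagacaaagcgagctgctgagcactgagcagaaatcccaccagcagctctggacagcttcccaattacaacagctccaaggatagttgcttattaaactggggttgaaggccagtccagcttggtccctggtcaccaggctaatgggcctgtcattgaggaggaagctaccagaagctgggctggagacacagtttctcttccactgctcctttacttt

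The letters CTGGGA were found in all 5 of these windows. They stood 3 times in the Fgg window, 2 times in that of Fgb and 1 time in each of the others. The match nearest the start began at base -130 in Fga, -17 in Fgb (reverse strand), 1 in Fgg, -109 in C1r and -200 in Mbl1, counted from the annotated start as base 1. Of the 30 members with a promoter window, 18 held CTGGGA (60%), against 32.1% of 27457 genes with windows of the same length. GTTAAT was held by 10 of the 30 members (33.3%), among them Fga and Fgb, against 8.12% of those genes. A gene was counted if any of its windows matched, over 33469 windows in all, and Fga has 2 windows of which 1 is shown. The counts include F11 for CTGGGA and C5 and F13b for GTTAAT, whose signals were not analysed. The motifs did not overlap each other in the windows shown. A match of letters is a description of the sequence and not a binding site.

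The first step of complement is covered by 6 genes, of which 5 had a lower and 1 a higher mean with phenolphthalein (median log2 fold change -0.18). With a median shift 4 were lower and 2 higher, the median was -0.11, and the groups of 1 gene in place of 4 were apart. C1s codes for the C1 protease that cleaves C4 and C2. Its signal was 6.14, 5.85 and 6.15 on the vehicle arrays, in the order of replicates 1 to 3 that is kept throughout, and 5.74, 5.64 and 5.73 on the treated ones. All treated arrays were below all control arrays, with replicate 2 the lowest of each group. This gave a log2 fold change of -0.34 ± 0.11 (SE, n = 3 per group), a fold of 0.789, with a limma unadjusted p of 0.0187 and an adjusted p of 0.256, so that the difference did not pass. A second C1s probe differed by -0.33 and also had its groups apart. Over 17 alternative settings the C1s value ran from -0.44 to -0.26.

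C1r, the protease that activates C1s, is its neighbour on chromosome 4. It read 6.26, 6.03 and 6.24 in corn oil and 6.02, 5.87 and 6.03 with phenolphthalein. The groups were apart only beyond the second decimal, since corn oil replicate 2 and phenolphthalein replicate 3 both read 6.03. The log2 fold change was -0.20 ± 0.10 (SE, limma adjusted p = 0.386), and the groups overlapped with normexp or a median shift.

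Mbl1 codes for mannose-binding lectin A, which binds microbial sugars and starts the lectin pathway. It read 5.51, 5.39 and 5.33 in corn oil and 5.12, 5.12 and 5.26 with phenolphthalein. The treated arrays were the 3 lowest. The log2 fold change was -0.24 ± 0.09 (SE), with a limma unadjusted p of 0.032 and an adjusted p of 0.289. It was -0.42 with normexp, where its adjusted p of 0.123 was the smallest of any member in any setting, and -0.16 with a median shift, where the groups overlapped.

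Masp2 codes for the lectin pathway protease that cleaves C4 and C2. Its tested probe read 4.58, 4.42 and 4.52 in corn oil and 4.34, 4.35 and 4.35 with phenolphthalein, a log2 fold change of -0.17 ± 0.07 (SE, limma adjusted p = 0.359). The treated arrays lay close together below the controls. The other 2 Masp2 probes differed by 0.03 and 0.07 in the opposite direction and overlapped, so the probes of this gene disagree. Masp1, a second lectin pathway protease, had 4 probes with differences of -0.15 to 0.005, all overlapping.

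Mbl2, the gene of mannose-binding lectin C, went the other way from Mbl1. It read 4.33, 4.26 and 4.03 in corn oil and 4.32, 4.61 and 4.26 with phenolphthalein. Phenolphthalein replicate 2 stood above the other arrays, and the groups overlapped. The log2 fold change was 0.19 ± 0.13 (SE, limma adjusted p = 0.525), and the second Mbl2 probe gave a difference of 0.18. With phenolphthalein replicate 2 left out the Mbl2 value was 0.08, and with corn oil replicate 3 left out it was 0.10.

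**Figure D2:**
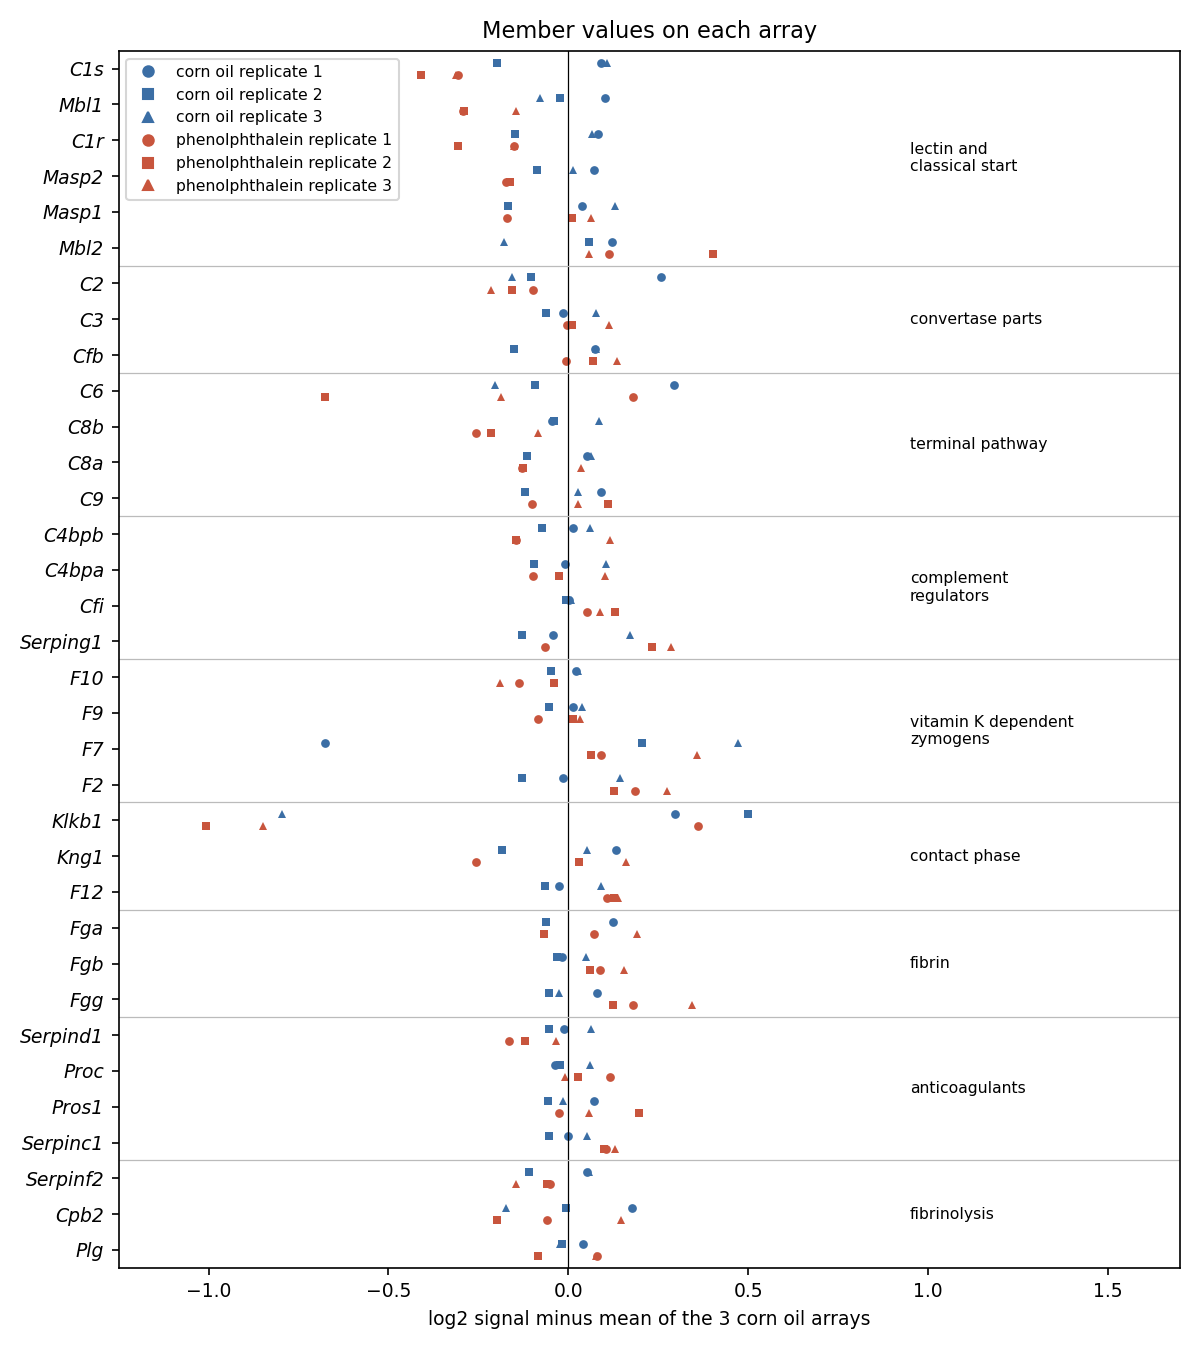
Log2 signal of each member on each of the 6 arrays minus the mean of the 3 corn oil arrays (x axis), by gene (y axis, ordered by role). Points are single arrays, and most lie within 0.25 units of the corn oil mean, while Klkb1, F7 and C6 spread more widely within a group.

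The parts of the C3 convertases showed small differences, from -0.16 to 0.07. C3 is the component on which all pathways meet. Its mean signal was 9.48 ± 0.07 with vehicle against 9.52 ± 0.06 in treated animals (SD, n = 3 per group). Factor B, Cfb, the protease of the alternative pathway convertase, had 8.75 ± 0.13 and 8.82 ± 0.07. C2, the protease of the classical convertase, had 4.45 ± 0.23 and 4.29 ± 0.06, with corn oil replicate 1 high on both of its probes, at 4.71 and 4.33. Without that array the C2 log2 fold change of -0.16 was -0.03. Groups overlapped for all 3 genes, whose limma adjusted p were 0.593 to 0.84.

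Among the terminal components, C8b codes for the beta chain of C8, a part of the pore. It read 5.36, 5.37 and 5.49 in corn oil and 5.15, 5.19 and 5.32 with phenolphthalein. The treated arrays were the 3 lowest. The log2 fold change was -0.19 ± 0.08 (SE, limma adjusted p = 0.363). C8a, the alpha chain and the neighbour of C8b on chromosome 5, had a value of -0.07 ± 0.09 (SE), and its 3 probes gave -0.14 to 0.06. C6, which joins C5b at the start of pore assembly, read 4.41, 4.02 and 3.91 in corn oil and 4.29, 3.44 and 3.92 with phenolphthalein. It varied more within a group than 85.4% of all genes, and its log2 fold change of -0.23 ± 0.25 (SE) did not pass. The value was -0.43 without phenolphthalein replicate 1 and -0.004 without phenolphthalein replicate 2. C9, which forms the body of the pore, had a value of 0.01 ± 0.10 (SE).

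Of the complement regulators, Cfi codes for factor I, which cleaves C3b and C4b. It read 8.68, 8.67 and 8.68 in corn oil and 8.73, 8.81 and 8.77 with phenolphthalein. The control arrays differed only in the second decimal and all treated arrays stood above them, with a log2 fold change of 0.09 ± 0.07 (SE, limma adjusted p = 0.559) that was -0.02 with quantile normalization. Serping1, the inhibitor of C1r, C1s, kallikrein and factor XIIa, read 8.82, 8.73 and 9.03 in corn oil and 8.79, 9.09 and 9.15 with phenolphthalein. Corn oil replicate 3 and phenolphthalein replicates 2 and 3 were the high arrays on this probe and on both other Serping1 probes, so that the spread was shared by probes but not by treatment. Its log2 fold change of 0.15 ± 0.13 (SE) ran from 0.08 without phenolphthalein replicate 3 to 0.26 when phenolphthalein replicate 1 was left out. The chains of C4b-binding protein, C4bpa and C4bpb, had values of -0.01 ± 0.09 and -0.06 ± 0.10 (SE).

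Coagulation and fibrinolysis had 17 measured members, of which 10 had a higher and 7 a lower mean (median 0.04), against 6 and 11 of 17 complement members (median -0.06). The difference between these arms was not tested. Under a median shift 23 of all 34 members had a higher mean, under quantile normalization 9, and under the scaling used here 16.

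The fibrinogen chains are coded by Fgg, Fga and Fgb, which follow each other on chromosome 2. Fgg read 9.20, 9.06 and 9.09 in corn oil and 9.30, 9.24 and 9.46 with phenolphthalein. All treated arrays lay above the controls, and phenolphthalein replicate 3 was the highest. The log2 fold change was 0.22 ± 0.09 (SE), the highest among members, with a limma unadjusted p of 0.054 and an adjusted p of 0.334. Fgb read 9.68, 9.67 and 9.75 in corn oil and 9.79, 9.76 and 9.86 with phenolphthalein, again with the treated arrays above and replicate 3 highest. Its log2 fold change was 0.10 ± 0.07 (SE, limma adjusted p = 0.533). Fga read 9.12, 8.93 and 8.93 in corn oil and 9.07, 8.93 and 9.19 with phenolphthalein, and its groups overlapped, with a value of 0.07 ± 0.10 (SE) that was -0.05 with quantile normalization.

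Second probes of Fgg and Fgb gave differences of 0.18 and 0.13, with overlapping groups in both cases. The fibrinogen values were sensitive to scaling: those of Fgg and Fgb were 0.12 and 0.02 with quantile normalization, 0.03 and 0.04 with normexp and 0.30 and 0.18 with a median shift. Their windows above hold CTGGGA, and the gene of the interleukin-6 signal carrier Stat3 had a log2 fold change of 0.57 ± 0.19 (SE, limma adjusted p = 0.273), with means of 2.62 ± 0.04 and 3.18 ± 0.38 (SD, n = 3 per group). The windows of C1r and Mbl1 hold CTGGGA too, and the values of these genes were -0.20 and -0.24. Stat3 was 1 of 20 tested liver transcription and interleukin-6 signal genes, of which 11 had a higher and 9 a lower mean. The part of Stat3 in the fibrinogen values was not tested.

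Vitamin K dependent zymogens need gamma-carboxylation to bind membranes. F2, the gene of prothrombin, read 9.14, 9.02 and 9.30 in corn oil and 9.34, 9.28 and 9.43 with phenolphthalein. Only corn oil replicate 3 reached into the range of the treated arrays. The log2 fold change was 0.20 ± 0.10 (SE, limma adjusted p = 0.402), and -0.02 with normexp. F7, the zymogen that tissue factor activates, read 0.53, 1.41 and 1.68 in corn oil and 1.29, 1.27 and 1.56 with phenolphthalein. The low value of corn oil replicate 1 sets its mean: the log2 fold change was 0.17 ± 0.30 (SE) with that array, and -0.17 without it.

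F9, the factor missing in haemophilia B, had a tested probe whose means were 6.38 ± 0.05 with vehicle against 6.37 ± 0.06 in treated animals (SD, n = 3 per group). Its second probe read 3.22, 3.14 and 3.37 against 3.48, 3.48 and 3.43, with the treated arrays above the controls. The probes thus gave -0.01 and 0.21, a disagreement of 0.23, next to the widest, 0.24, in Masp2. F10, which forms the prothrombin-cleaving enzyme with factor V, had a value of -0.12 ± 0.08 (SE, limma adjusted p = 0.482).

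The contact phase starts when factor XII meets a charged surface. F12 read 7.64, 7.60 and 7.75 in corn oil and 7.77, 7.79 and 7.80 with phenolphthalein, a log2 fold change of 0.13 ± 0.08 (SE, limma adjusted p = 0.47). The treated arrays lay just above the highest control, while the second F12 probe gave -0.06 with overlapping groups. Klkb1 codes for plasma prekallikrein and had the widest spread of all members. It read 5.50, 5.70 and 4.40 in corn oil and 5.56, 4.19 and 4.35 with phenolphthalein. Arrays of both groups fell near 5.6 or near 4.3 with none between, at 2 high and 1 low in corn oil and 1 high and 2 low with phenolphthalein. Its within-group SD of 0.72 was larger than that of 96.6% of all genes, and the log2 fold change of -0.50 ± 0.49 (SE, limma adjusted p = 0.655) ran from -0.93 to -0.24 when 1 array was left out. Without phenolphthalein replicate 1 it was -0.93, and without phenolphthalein replicate 2 it was -0.24. Klkb1 had 1 probe, so no second probe bears on this split. Kng1, the gene of kininogen, from which bradykinin is cut, had a value of -0.02 ± 0.14 (SE). Its paralog Kng2, named after its value was seen, had -0.08 ± 0.16 (SE), and a kininogen probe may take up signal of both genes.

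Of the anticoagulants, Serpinc1 codes for antithrombin. It read 9.17, 9.11 and 9.22 in corn oil and 9.27, 9.27 and 9.30 with phenolphthalein. All treated arrays stood above the controls by a little, with a log2 fold change of 0.11 ± 0.07 (SE, limma adjusted p = 0.48). The value was 0.01 with quantile normalization, and the second probe gave 0.02. Serpind1 (heparin cofactor II) had -0.11 ± 0.08, Proc (protein C) 0.04 ± 0.08 and Pros1 (its cofactor protein S) 0.08 ± 0.09 (SE). In fibrinolysis, Plg (plasminogen) had 0.02 ± 0.08, Serpinf2 (the plasmin inhibitor) -0.08 ± 0.08 and Cpb2 (which removes plasminogen binding sites from fibrin) -0.04 ± 0.13. Groups overlapped for these 6 genes, and their limma adjusted p were 0.543 to 0.916.

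Where a member had more than 1 probe (19 genes, with 24 probes besides the tested ones), every other probe lay within 0.25 log2 units of the tested one in its difference between groups. The sign was the same for 13 and opposite for 11. Among the members with groups apart and a second probe, C1s kept its groups apart on it, while Masp2, F12, Fgb, Fgg and Serpinc1 did not.

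**Figure D3:**
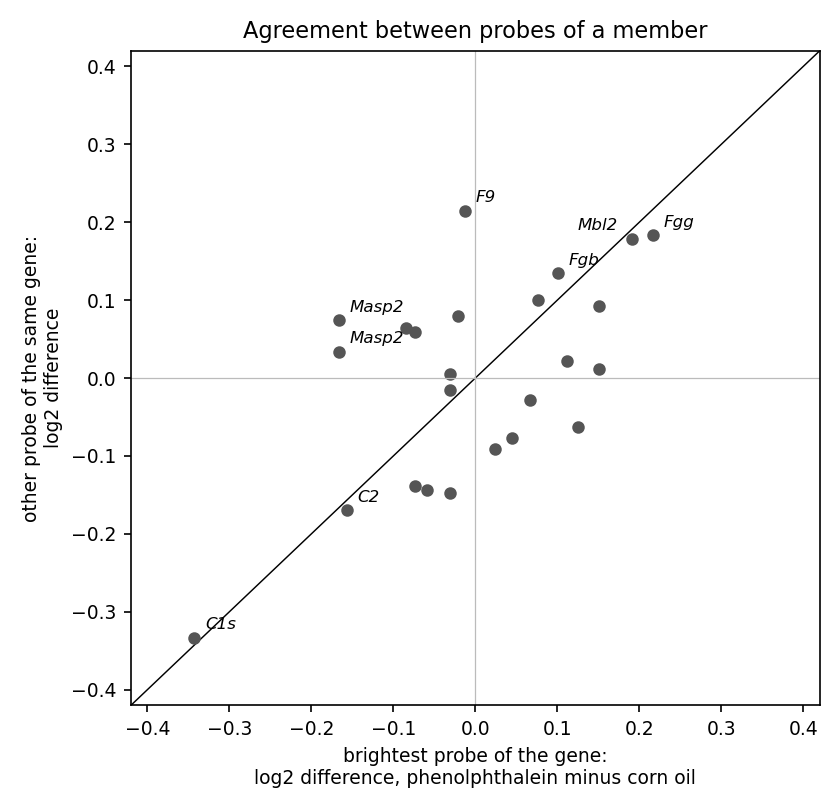
Difference between group means of the brightest probe of a gene (x axis) against that of each other probe of the same gene (y axis), both in log2 units, phenolphthalein minus corn oil. The 24 points lie near 0, the line marks equal differences, C1s sits at the lower left with both probes at about -0.34, and F9 and Masp2 lie farthest from the line.

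In corn oil liver the members gave bright signals. The median member lay at the 96.7th percentile of all tested genes, 23 of 34 lay above the 95th and 10 above the 99th. Probe signal also depends on the sequence of the probe, so this is an order of signals and not of transcript numbers. Highest was Fgb at 9.70 ± 0.04, followed by C3 at 9.48 ± 0.07 (SD, n = 3), both apart from their lower neighbours by more than the spread. Serpinc1, F2 and Fgg then lay between 9.17 and 9.12 and did not differ beyond their spread. From Fga at 8.995 down to Cfi at 8.68, each gene was also within the spread of the next. A gap of 0.82 separated Cfi from C4bpb. At the lower end stood Masp1 at 3.69 ± 0.15, Pros1 at 2.47 ± 0.06 and F7 at 1.20 ± 0.60, each below the gene before it by more than the spread. Of the 33 steps between neighbours 15 were wider than the larger SD of the pair.

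The members also varied little from array to array within a group. The within-group SD had a median of 0.10 log2 units, against 0.15 for all genes, and 3 members (Klkb1, F7 and C6) were over 0.2, as were 37.3% of all genes. All genes were not matched to the members for signal, and the median member lay at the 96.7th percentile. Whether the lower SD goes with brighter signal was not tested. Phenolphthalein replicate 3 had the highest signal for 11 of the 34 members and corn oil replicate 3 for 10. The lowest signal was that of corn oil replicate 2 for 11 and of phenolphthalein replicate 1 for 10. Relative to each gene's mean of 6 arrays, the median member stood at 0.054 and 0.045 on the first pair. It stood at -0.050 and -0.040 on the second pair. The median of all genes stood at -0.01 to 0.02 on the 6 arrays.

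**Figure D4:**
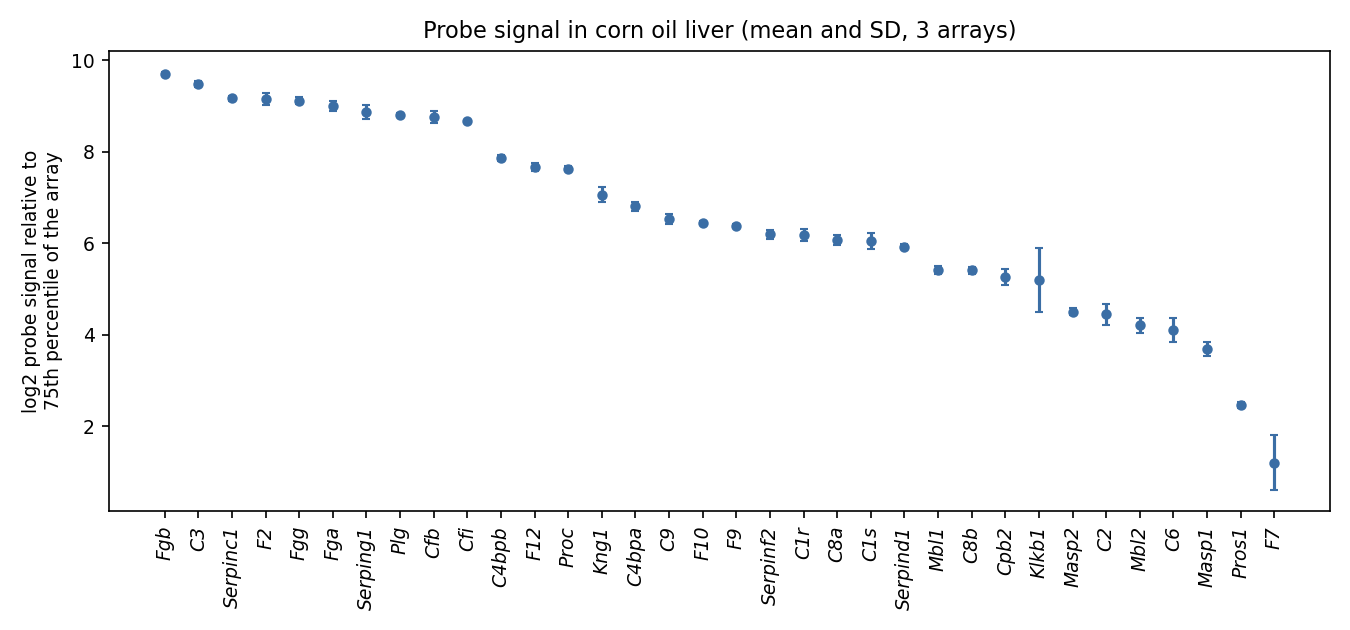
Log2 probe signal relative to the 75th percentile of the array (y axis) for the 34 members in corn oil liver, in falling order (x axis), as mean and SD of 3 arrays. Signals run from 9.70 for Fgb to 1.20 for F7, and wide bars mark F7 and Klkb1.

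Complement genes outside the member list were set beside it, and of 26 listed genes 20 were tested. None passed over all genes in limma, and 9 had an unadjusted p under 0.05, all with a lower mean, against 8.11% of all genes with a lower mean at that p. Itgam, 1 of the 9 and named after its value was seen, was well above background on 3 corn oil arrays and 1 phenolphthalein array. It thus met the filter on dim signal through the corn oil group, and its lower mean is no support. The median log2 fold change of the list was -0.30, or -0.18 with normexp and -0.22 with a median shift, against -0.06 for the complement members, and this difference was not tested. Fcnb and Fcna, the ficolins that recognise acetylated sugars, had values of -0.75 ± 0.10 and -0.64 ± 0.17 (SE), with limma adjusted p of 0.0955 and 0.217. C1qa, a chain of the C1q that carries C1r and C1s, had -0.65 ± 0.21 (SE, limma adjusted p = 0.261). Its partner chains C1qb and C1qc, named after their values were seen, had -0.50 ± 0.18 and -0.61 ± 0.22. Vitronectin, Vtn, also chosen so and made by hepatocytes, had 0.02 ± 0.08.

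C1q and the receptors on this list are known from macrophages, and markers of Kupffer cells and macrophages had lower means as well. All 8 tested markers of 9 listed (Cd163, Marco, Csf1r, Clec4f, Vsig4, Cd68, Cd5l and Adgre1) had a lower mean, with a median log2 fold change of -0.65. None passed in limma, and 7 had an unadjusted p under 0.05, against 8.11% of all genes with a lower mean at that p. All 8 were well above background on all 6 arrays. Their summed signal, in units of the 75th percentile, was 99.98 to 137 with vehicle and 69.2 to 92.7 in treated animals. Clec4f weighed most in this sum of unlogged signals, with a corn oil mean of 6.35 log2 units against 3.76 for Cd68, the next brightest. Fewer cells of a type and less RNA per cell cannot be told apart in RNA of whole liver. Vsig4, a complement receptor, stands on both lists. The part of these cells in the values of C1s, C1r, Mbl1 and Masp2 was not tested. Hepatocyte markers had a median of 0.04, which was 0.01 with normexp, -0.03 with quantile normalization and 0.12 with a median shift, with 0 of 8 past the test and 0 at an unadjusted p under 0.05, and their summed signal was 3938 to 4222 on corn oil and 4054 to 4148 on phenolphthalein arrays.

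**Figure D5:**
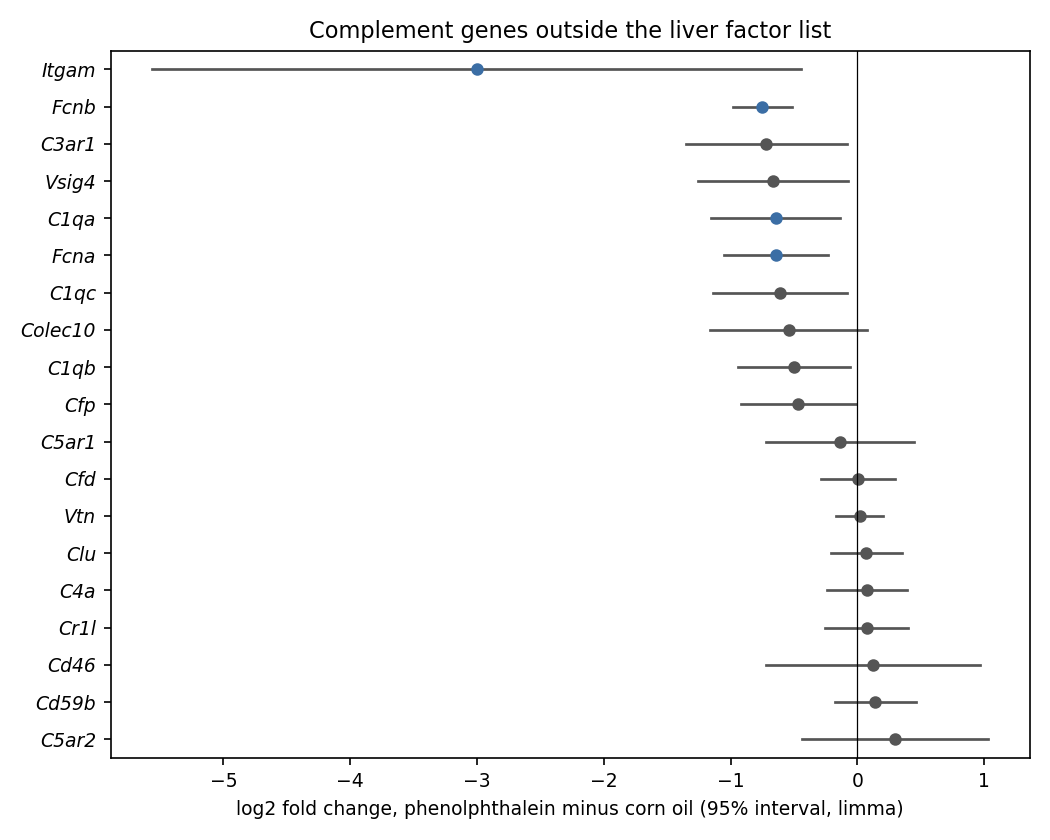
Log2 fold change, phenolphthalein minus corn oil, with its 95% interval from limma (x axis), for 19 of the 20 tested complement genes outside the member list (y axis, in rising order). Blue points are genes whose treated arrays all lie below the controls (Itgam, Fcnb, C1qa and Fcna), and the wide interval belongs to Itgam, whose signal was well above background on 1 of 3 phenolphthalein arrays.

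Among the other coagulation and fibrinolysis genes 22 of 28 were tested, 0 passed in limma, and the median was 0.00, or -0.02 with quantile normalization and 0.08 with a median shift. At an unadjusted p under 0.05 there were 2 genes of the 22, against 15.3% of all genes. Plau, the plasminogen activator urokinase, had -0.80 ± 0.17 (SE, limma adjusted p = 0.172), and Lman1 had 0.45 ± 0.13 (SE, limma adjusted p = 0.243). Lman1 and Mcfd2 form the receptor that carries factors V and VIII from the endoplasmic reticulum to the Golgi. Mcfd2 had 0.18 ± 0.07 (SE), and all treated arrays lay above the controls for both genes. This held for 4 of the 22 genes and for 12.2% of all genes. With normexp or a median shift there were 5 such genes on the list (14.1% and 22.2% of all genes). With quantile normalization there was 1 (10.8% of all genes), so it did not hold for both there. Under the main scaling all treated arrays lay below the controls for 2 of the 22 genes, as for 11% of all genes. Of the 22 genes 11 had a higher and 11 a lower mean. The vitamin K enzymes, named after their values were seen, had 0.21 ± 0.11 for the carboxylase Ggcx and 0.14 ± 0.09 for the reductase Vkorc1 (SE). Of the liver transcription and interleukin-6 signal genes 20 of 21 were tested, and 0 passed in limma. Of these 1 (Stat3) had an unadjusted p under 0.05, against 15.3% of all genes. The median was 0.07, or 0.03 with quantile normalization and 0.15 with a median shift. Il6st, the shared signal chain of the interleukin-6 receptor, had 0.19 ± 0.09 (SE). Esr1, the oestrogen receptor, had -0.77 ± 0.41 (SE, limma adjusted p = 0.423), with overlapping groups. Its signal was dim, at -3.76 ± 0.83 with vehicle and -4.53 ± 0.17 in treated animals (SD, n = 3 per group).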

How the data were processed

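Liver RNA (total RNA, Cy3) was read on Agilent arrays of 1 colour, 1 per animal, per the labels. The processed spot intensity in the deposited scanner files was made with Agilent Feature Extraction (10.7 per the submitters' processing notes, 10.7.1.1 per the file headers), after background subtraction and detrending and with no scaling between arrays. The authors' deposited value table was found, against the scanner values, to be that intensity over a constant for each array near its 75th percentile.

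Here the log2 of the processed signal minus the 75th percentile of the array, over 61657 non-control spots, was used. Spots with an outlier mark were set missing, and a probe was kept if it was well above background on 3 or more of the 6 arrays. Probe accessions were matched to RefSeq names (GRCr8), which named 1 gene for 27460 probes and none for 34197. limma 3.58.1 (R 4.3.3) was fitted over all genes, phenolphthalein minus corn oil, with Benjamini-Hochberg adjustment at 0.05, and was tested on simulated data. Alternatives were normexp background correction (offset 50), quantile normalization, a median shift, other filters, probes averaged per gene, keeping marked spots, an intensity trend in a robust prior, the authors' table, a replicate block and leaving out each array.

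Members, gene lists, marker lists and tests were chosen with earlier results of these data known. Members are given array by array where the unadjusted p was under 0.05, where groups did not overlap, or where the fold change was among the 5 highest or 5 lowest. Fga was added to complete the fibrinogen chains. Of each other gene list the 3 genes of smallest p are named, and others are marked as chosen later. A gene of the other complement list is counted but not reported here by name. Animals were separate, per the labels, and the number of arrays limits the precision. Replicate numbers did not pair the samples, with correlations of deviations across genes of -0.0245 to 0.0165.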

Additional observations from a re-analysis of the deposited data

How the results depend on the processing

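The alternatives numbered 17, of which masking array columns with dim spots was chosen after seeing the data and touched 0 member probes. In none of them did a member pass, and the smallest adjusted p of a member was 0.123. The median log2 fold change of the members was -0.091 with quantile normalization, 0.069 with a median shift and -0.045 to 0.031 when 1 array was left out. Members with an unadjusted p under 0.05 numbered 5 with normexp, 5 with quantile normalization, 5 with a median shift, 6 with an intensity trend and robust prior and 0 to 3 without 1 array, 0 being without corn oil replicate 1 and 1 with phenolphthalein replicate 1 or 2 left out. The share of all genes at that p is given only for the main scaling, where it was 15.3%. Members with all treated arrays above the controls numbered 2 with normexp, 0 with quantile normalization, 8 with a median shift, 3 with probes averaged per gene and 5 to 8 without 1 array, the 8 being without corn oil replicate 3. Those with all below numbered 8, 8 and 1 in the first 3 of these and 5 to 9 without 1 array, 9 when corn oil replicate 2 and 8 when phenolphthalein replicate 3 was left out. Of all genes, 14.1% lay above with normexp, 10.8% with quantile normalization, 22.2% with a median shift and 10.9% with probes averaged per gene. The shares below were 10.2%, 11.2% and 6.31% in the first 3 of these. Without 1 array, 16.8% to 19.0% of all genes lay above and 14.1% to 18.0% below. Over all genes 0 to 6 were called without 1 array, 6 of them without phenolphthalein replicate 3 and at most 1 without any other array. With the replicate number as a block, 0 genes were called over all and 1 member had an unadjusted p under 0.05, but the numbers do not pair the samples.

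Signs turned in some setting for 15 members, none of them called, and the cause was not tested. With normexp C4bpa was 0.030, C9 -0.038, F2 -0.015, Masp1 0.067 and Plg -0.12. With quantile normalization C9 was -0.085, Cfb -0.046, Cfi -0.025, Fga -0.046, Plg -0.095 and Proc -0.010. With a median shift C4bpa was 0.071, C4bpb 0.020, C8a 0.0059, Cpb2 0.042, F9 0.067, Kng1 0.057 and Masp1 0.047. With probes averaged per gene F9 was 0.10, Kng1 0.029, Plg -0.033 and Proc -0.016. Without 1 array C4bpa ran from -0.063 to 0.044, C9 from -0.047 to 0.069, Cfb from -0.010 to 0.10, Cpb2 from -0.13 to 0.052, F7 from -0.17 to 0.41, F9 from -0.039 to 0.024, Kng1 from -0.11 to 0.10, Masp1 from -0.12 to 0.038 and Plg from -0.0032 to 0.078.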

Other observations

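Markers of other liver and blood cells that bear on clotting were measured as well. Of the sinusoidal endothelium markers 5 of 8 were tested, and 0 passed in limma, with 0 at an unadjusted p under 0.05. Their median log2 fold change was -0.08, or 0.002 with a median shift. Among them F8, the gene of coagulation factor VIII, which endothelial cells make, had -0.10 ± 0.08 (SE). Of the platelet and megakaryocyte markers 4 of 6 were tested, with 0 past limma's test, 0 at an unadjusted p under 0.05 and a median of 0.06, or -0.04 with normexp. Pf4, platelet factor 4, had -0.10 ± 0.28 (SE). The 6 stellate cell markers had a median of -0.19, or -0.11 with normexp or a median shift, and 3 of 5 neutrophil markers were tested with a median of 0.51. In each of these lists 0 genes passed in limma and 1 had an unadjusted p under 0.05, Col1a1 with -0.48 and Camp with -0.39. Of all genes 15.3% had such a p. F8, Pf4, Col1a1 and Camp were named after their values were seen.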
